A study of Mus musculus with 4 samples.

Results

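The epidermal growth factor (EGF) family was examined through 10 genes, taken by symbol from the 32479 genes of the count tables. They were the ligand genes Hbegf, Areg, Ereg, Epgn, Btc and Tgfa, the receptor genes Egfr, Erbb2 and Erbb3, and Lrig1, whose product is a membrane inhibitor of these receptors. The study compared single cells of the dorsal epidermis of female C57BL/6N mice at postnatal day 19. The 2 control mice were CerS4fl/fl K14Cre- and the 2 CerS4epi-/- mice were CerS4fl/fl K14Cre+, so both groups carried the floxed alleles of ceramide synthase 4 and differed in Cre. Cre was driven by the keratin-14 promoter, which is active in basal keratinocytes and hence in all their descendants, so cells of other lineages such as T cells and Langerhans cells are not its target. The counts were given for each mouse apart, and the part of 1 mouse is called a library here. They came from BD Rhapsody, in which cells are caught in microwells. Each RNA molecule is tagged with a cell barcode and a molecular identifier. According to the paper, cells were labeled with a multiplexing kit before loading, and the sample tags were sorted out in processing.

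A barcode was taken as a cell from 1200 counts upward and with up to 20% of them mitochondrial. This gave 34150 cells, 7567 to 9086 per mouse, with a median depth of 3266 to 3884 counts per cell. The mitochondrial limit removed 68 and 91 barcodes in control mice and 363 and 316 in CerS4epi-/- mice. The median mitochondrial share of the kept cells was 8.659 and 8.561% in control and 9.945 and 9.683% in CerS4epi-/- mice. Cells were sorted in silico into classes by marker genes that did not include any of the 10 members, and 31417 of them (92.0%) fell into a class. In the interfollicular epidermis (IFE) these were basal cells (Krt5, Krt14 and Krt15 without Krt1 and Krt10, 10897 cells), cycling basal cells (735), spinous cells (Krt1 and Krt10, 10177) and granular cells (loricrin, filaggrin and late cornified envelope genes, 3438). In the hair follicle they were upper hair follicle (uHF)-like cells (Krt79, 2368), differentiated uHF-like cells (Krt79 and Cst6, 2066) and inner bulge-like cells (Krt75, 148). A further 702 basal cells with Krt17 and little Krt79 had none of their class's markers among their 10 leading genes, and are called Krt17+ cells. T cells (449) and Langerhans cells (215) were gated as well. Cells gated as outer bulge or sebaceous gland numbered under 20 in a control mouse and were not tested. Levels are given as CPM, the counts of a gene per 1000000 counts of that class in that mouse, always in the order of mouse 1 and mouse 2 of a genotype.

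The libraries of 1 genotype shared no kept barcode, whereas each pair of a control and a CerS4epi-/- library shared 64 to 102 barcodes (0.846 to 1.13% of the smaller library). This is the pattern that joint loading of the mice of a genotype on 1 cartridge would leave, and cartridge and genotype then cannot be told apart in any comparison of genotypes given here. Counts of Cers4 did not separate the genotypes, with 1.19 and 1.23 CPM in IFE basal cells of control mice and 1.37 and 1.63 CPM in those of CerS4epi-/- mice, from 9 to 12 counts. Reads at the 3' end of a transcript do not check a deletion that lies elsewhere in the gene. With 2 mice per genotype an exact permutation test of a single value cannot go below p = 0.333, so all tests were fits across all genes. Their p-values set a difference against the spread between these mice, with the spread of each gene drawn toward that of all genes. If the mice of a genotype shared a cartridge, this spread leaves out the variation between cartridges.

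EGF family ligands are made as membrane-anchored precursors that are cut by proteases such as ADAM17 to give soluble growth factors. Egfr binds all 6 ligands examined here, Erbb2 has no known ligand and acts as a partner of the other receptors, and Erbb3 binds neuregulins and signals through its partners because its own kinase is nearly inactive. In skin, Egfr signaling is known for its part in keratinocyte proliferation, in the timing of differentiation and in the hair cycle, and Lrig1 is known as a marker of stem cells of the upper follicle.

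Of the ligand genes, 4 lie close together on chromosome 5, and the promoters of these neighbors are shown because the genes differed in the layer in which they were expressed. On GRCm39, Epgn is at chr5:91175323-91183074, Ereg at chr5:91222157-91241505, Areg at chr5:91287451-91296291 and Btc, on the opposite strand, at chr5:91505120-91550883. The gaps between neighbors were 39.1, 45.9 and 208.8 kb, and the genes spanned 375.6 kb. The 250 bases upstream of each annotated start follow, 5' to 3' on the strand of the gene, and letters in capitals mark the motif matches described after them. They are chr5:91175073-91175322 for Epgn, chr5:91221907-91222156 for Ereg, chr5:91287201-91287450 for Areg and chr5:91550884-91551133 on the minus strand for Btc.
Epgn: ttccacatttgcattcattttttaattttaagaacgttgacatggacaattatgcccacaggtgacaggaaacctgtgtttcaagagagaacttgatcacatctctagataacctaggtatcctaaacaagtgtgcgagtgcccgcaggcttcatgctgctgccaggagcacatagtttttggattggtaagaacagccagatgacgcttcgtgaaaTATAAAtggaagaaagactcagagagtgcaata
Ereg: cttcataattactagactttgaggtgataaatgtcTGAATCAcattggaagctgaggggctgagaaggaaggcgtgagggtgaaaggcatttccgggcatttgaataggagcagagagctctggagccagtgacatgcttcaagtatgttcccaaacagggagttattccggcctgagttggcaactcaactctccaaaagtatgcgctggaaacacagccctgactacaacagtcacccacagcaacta
Areg: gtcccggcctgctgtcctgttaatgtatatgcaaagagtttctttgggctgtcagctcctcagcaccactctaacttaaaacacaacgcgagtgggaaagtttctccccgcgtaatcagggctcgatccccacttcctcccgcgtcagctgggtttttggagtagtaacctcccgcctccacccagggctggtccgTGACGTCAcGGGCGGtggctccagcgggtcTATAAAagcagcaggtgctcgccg
Btc: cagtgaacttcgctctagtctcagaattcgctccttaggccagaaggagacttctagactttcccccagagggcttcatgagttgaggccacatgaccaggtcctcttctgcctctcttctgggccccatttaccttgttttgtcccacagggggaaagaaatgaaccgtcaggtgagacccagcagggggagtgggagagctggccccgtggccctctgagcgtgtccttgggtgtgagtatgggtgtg
The Epgn window held TATAAA 33 bases before the start, and the Areg window held it 24 bases before the start, a motif found in 11.91% of 21751 promoter windows of the same length when both strands were searched. The Areg window also held TGACGTCA, the cAMP response element, 54 bases before the start, and beside it GGGCGG, the GC box, at 45 bases, against 1.7% and 36.31% of all windows. The Ereg window held TGAATCA 215 bases before the start, a match to TGANTCA, a loose form of the AP-1 site with any base in the middle. This loose form was found in 6.17% of all windows, and the Btc window held none of the motifs searched. No 2 matches overlapped. The 4 windows thus shared no single one of these motifs, and a match is a description of the sequence and not a site shown to be used.

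**Figure D1:**
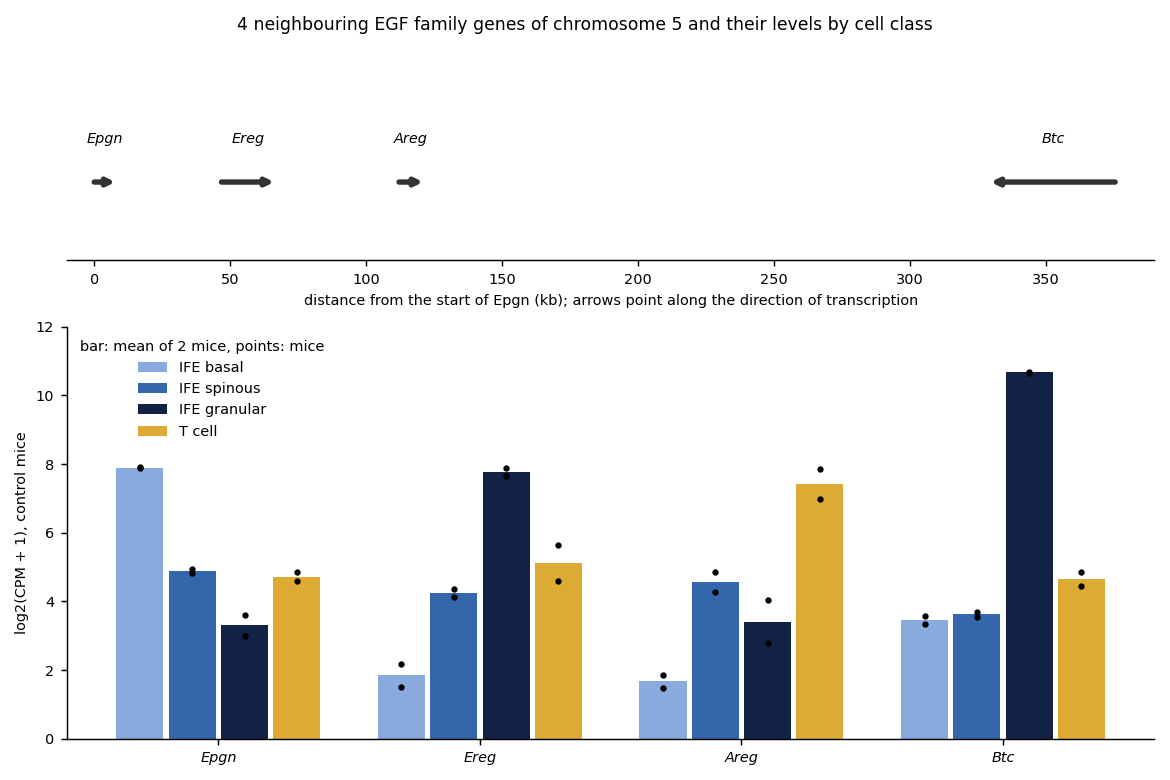
The upper part draws Epgn, Ereg, Areg and Btc as arrows against the distance from the start of Epgn in kb, and the lower part gives log2(CPM + 1) of each in 4 classes, with bars for the mean of the 2 control mice and points for the mice. Epgn is highest in basal cells, Ereg and Btc in granular cells, and Areg in T cells.

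Each ligand had its own place in the layers of the IFE. Epgn, the gene for epigen, was highest in the basal layers, with 239.9 and 235 CPM in IFE basal cells and 372 and 292 CPM in cycling basal cells of control mice. In control spinous cells it was at 29.6 and 27.4 CPM and in granular cells at 11.2 and 7.01 CPM. The basal cells of all 4 mice lay above all spinous and granular cells. The fits that compare classes, here and below, used the mice of both genotypes together. Against the IFE basal class, Epgn was lower by 2 or more log2 units in 5 classes, with a log2 difference of -2.46 ± 0.26 (SE, edgeR adjusted p = 1.65e-09) in spinous, -3.28 ± 0.29 (SE, edgeR adjusted p = 5.91e-12) in granular and -2.97 ± 0.31 (SE, edgeR adjusted p = 1.53e-09) in uHF-like cells. Of the control counts of Epgn, 54.0% came from IFE basal cells on average. Krt17+ cells held 454 and 472 CPM in control mice, both above the control IFE basal values. In CerS4epi-/- mice their mean was 290 CPM against 305 CPM in IFE basal cells. The fit over both genotypes did not separate the 2 classes (0.34 ± 0.28, edgeR adjusted p = 0.505).

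Btc, the gene for betacellulin, was nearly restricted to granular cells, which gave 96.8% of its control counts on average. Granular cells had 1609 and 1650.0 CPM in control mice and 1443 and 1442 CPM in CerS4epi-/- mice, while IFE basal cells had 9.12 and 10.9 CPM and 10.1 and 5.49 CPM. The log2 difference of granular to basal cells was 8.22 ± 0.41 (SE, edgeR adjusted p = 3.87e-18), the largest of any member and class. A count of Btc was seen in 52.3% and 52.7% of control granular cells (exact 95% intervals 48.9 to 55.7% and 49.8 to 55.7%), and in 3.85% and 4.54% of control T cells, at a median depth of 10672 counts in granular cells and 1763 counts in T cells. After each cell was thinned to 1200 counts, the control granular shares were 36.4% and 36.4%. A high value in Langerhans cells of control mouse 2 (881 CPM) came from a single cell that held 130 of 132 counts.

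Tgfa (chr6:86172041-86252728) and Ereg, the genes for transforming growth factor alpha and epiregulin, were also highest in granular cells of the IFE. Tgfa was at 199 and 181 CPM in control granular cells, 5.23 and 5.95 CPM in spinous cells and 14.8 and 16.1 CPM in basal cells, so the spinous layer was the lowest of the 3. Its log2 difference to basal cells was -1.04 ± 0.18 (SE, edgeR adjusted p = 8.76e-06) in spinous cells and 4.43 ± 0.17 (SE, edgeR adjusted p = 6.48e-21) in granular cells. Ereg was at 1.85 and 3.54 CPM in control basal cells, 19.4 and 16.5 CPM in spinous cells and 238 and 199.7 CPM in granular cells, and each step in this order was apart in all 4 mice. The log2 difference of granular to basal cells was 7.39 ± 0.25 (SE, edgeR adjusted p = 3.7e-22). Granular cells gave 78.1% of the control counts of Tgfa and 78.6% of those of Ereg.

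The same 3 genes were present in the differentiated uHF-like cells. Tgfa was at 130.4 and 116 CPM there in control mice, Ereg at 141 and 85.2 CPM and Btc at 132 and 36.7 CPM. Against IFE basal cells the log2 differences were 2.85 ± 0.17 (SE, edgeR adjusted p = 3.64e-15), 5.33 ± 0.26 (SE, edgeR adjusted p = 1.53e-17) and 3.87 ± 0.37 (SE, edgeR adjusted p = 1.12e-10). In uHF-like cells without Cst6 the control levels were 73.5 and 45.8 CPM of Tgfa, 34.8 and 53.7 CPM of Ereg and 37.4 and 28.5 CPM of Btc. Granular marker RNA summed to 2545 and 1176 CPM in control differentiated uHF-like cells, against 40985 and 40307 CPM in granular cells, and its part in these levels was not tested.

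Areg, the gene for amphiregulin, was low in basal cells and higher in every other tested IFE layer except the cycling cells. Control basal cells had 2.64 and 1.77 CPM, spinous cells 27.9 and 18.5 CPM and granular cells 15.3 and 5.87 CPM, with a log2 difference to basal cells of 3.50 ± 0.21 (SE, edgeR adjusted p = 2.52e-15) in spinous cells and 3.15 ± 0.22 (SE, edgeR adjusted p = 4.44e-14) in granular cells. Its levels in the upper follicle were higher still, with 60.4 and 40.3 CPM in uHF-like and 114 and 84.0 CPM in differentiated uHF-like cells of control mice. The log2 difference of the latter to basal cells was 5.42 ± 0.21 (SE, edgeR adjusted p = 1.01e-19).

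Hbegf, the gene for heparin-binding EGF-like growth factor, had the flattest profile of the ligands in the IFE of control mice. It was at 112 and 108 CPM in basal, 113 and 70.0 CPM in spinous and 78.2 and 43.7 CPM in granular cells, and the basal and spinous values overlapped while both granular values lay below both basal ones. Of the 7 classes compared with IFE basal cells over both genotypes, only differentiated uHF-like cells passed the test, with a log2 difference of 0.99 ± 0.25 (SE, edgeR adjusted p = 0.000733). The mean Hbegf level there was 146 CPM in control mice, against 110 CPM in basal cells. In CerS4epi-/- mice it was 285 CPM against 134 CPM. The fitted difference of granular cells was above 0 (0.39 ± 0.24, edgeR adjusted p = 0.124) although the control CPM was lower there.

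**Figure D2:**
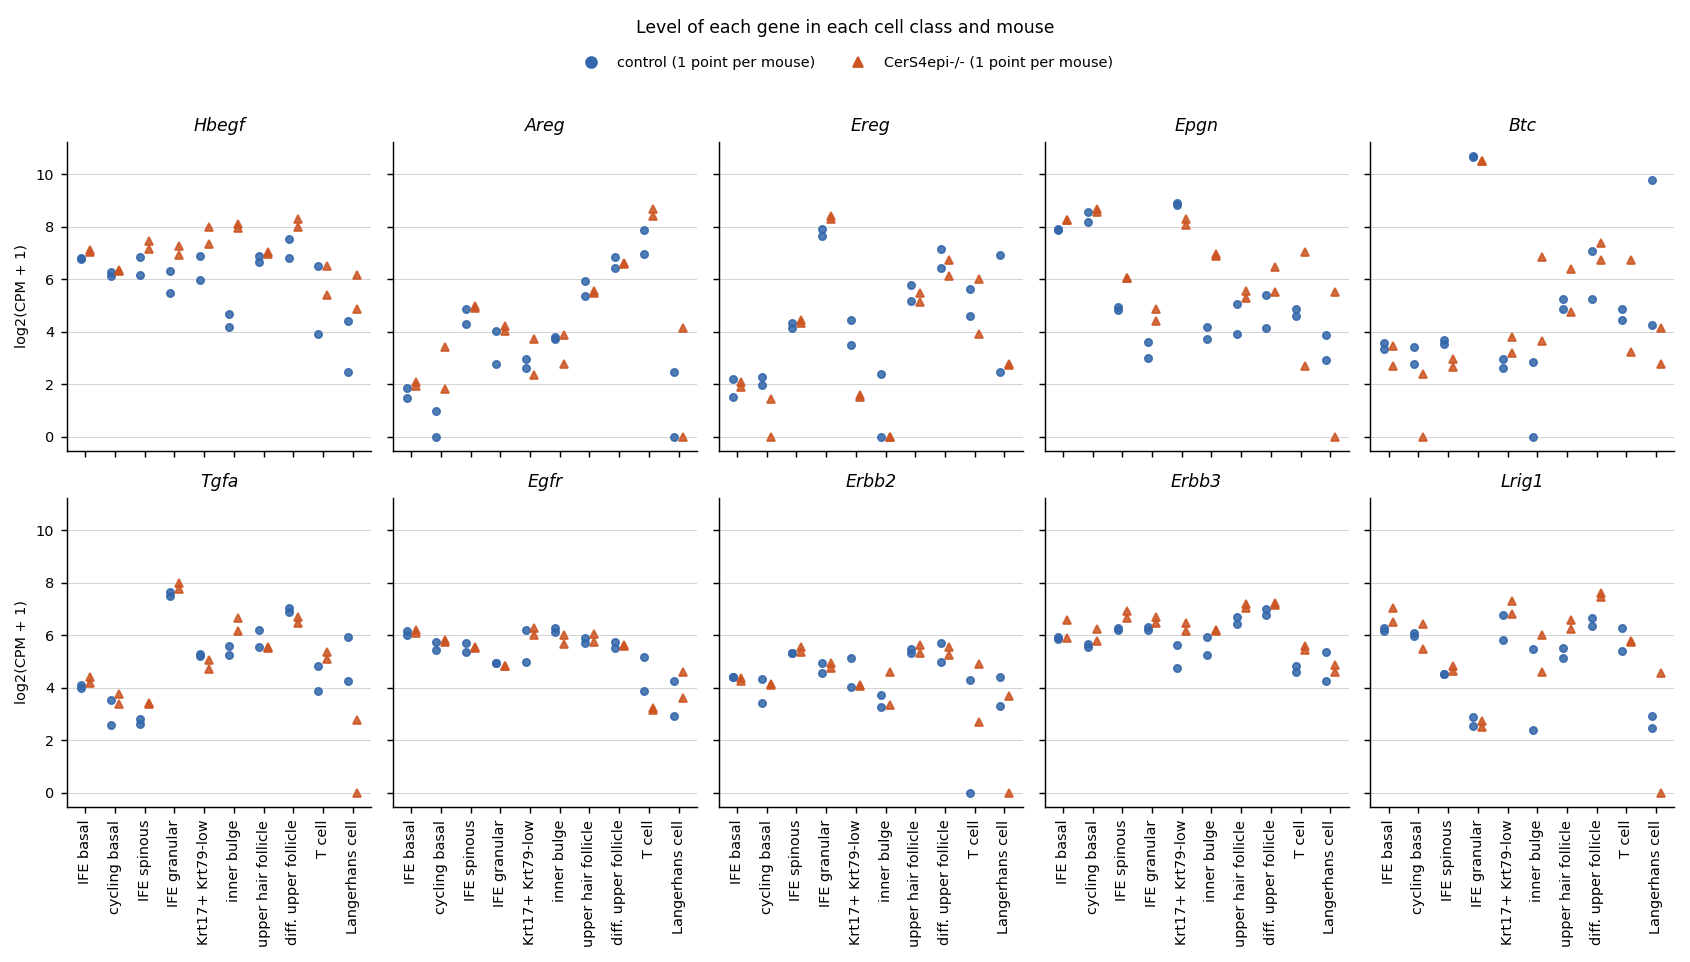
Each of 10 panels gives 1 member as log2(CPM + 1) in 10 cell classes, with 1 point for each of the 4 mice, colored by genotype. Btc, Ereg and Tgfa peak in granular cells, Epgn and Lrig1 fall from basal to granular cells, and Areg is high in T cells and the differentiated uHF-like class.

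Within the granular gate the ligands had different depths. Granular cells were divided by the share of their counts from 9 granular markers into under 2%, 2 to 10%, and 10% or more. Btc was at 25.4 and 36.6 CPM in control cells of the first step, at 2412 and 2324 CPM in the next and at 3944 and 5315 CPM in the last. Tgfa took the same order, with 31.5 and 27.4, then 293 and 260.3, then 366 and 404 CPM. Both were higher in the last 2 steps than in the first in every mouse of either genotype. Ereg was present earlier, at 135 and 119 CPM in the first step and 322 and 250.2 CPM in the next, and in the last step it was lower in 3 of 4 mice than in the step before by more than 2 times, the exception being control mouse 2 at 245.5 CPM. Hbegf fell away, from 96.8 and 63.6 CPM in the first step to 3.39 and 6.46 CPM in the last, and the last step was the lowest in all 4 mice. Cells between the basal and spinous gates still had 241 and 207 CPM of Epgn in control mice, close to the basal level. The steps use markers that rise with differentiation, so they order cells and are described without a test.

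**Figure D3:**
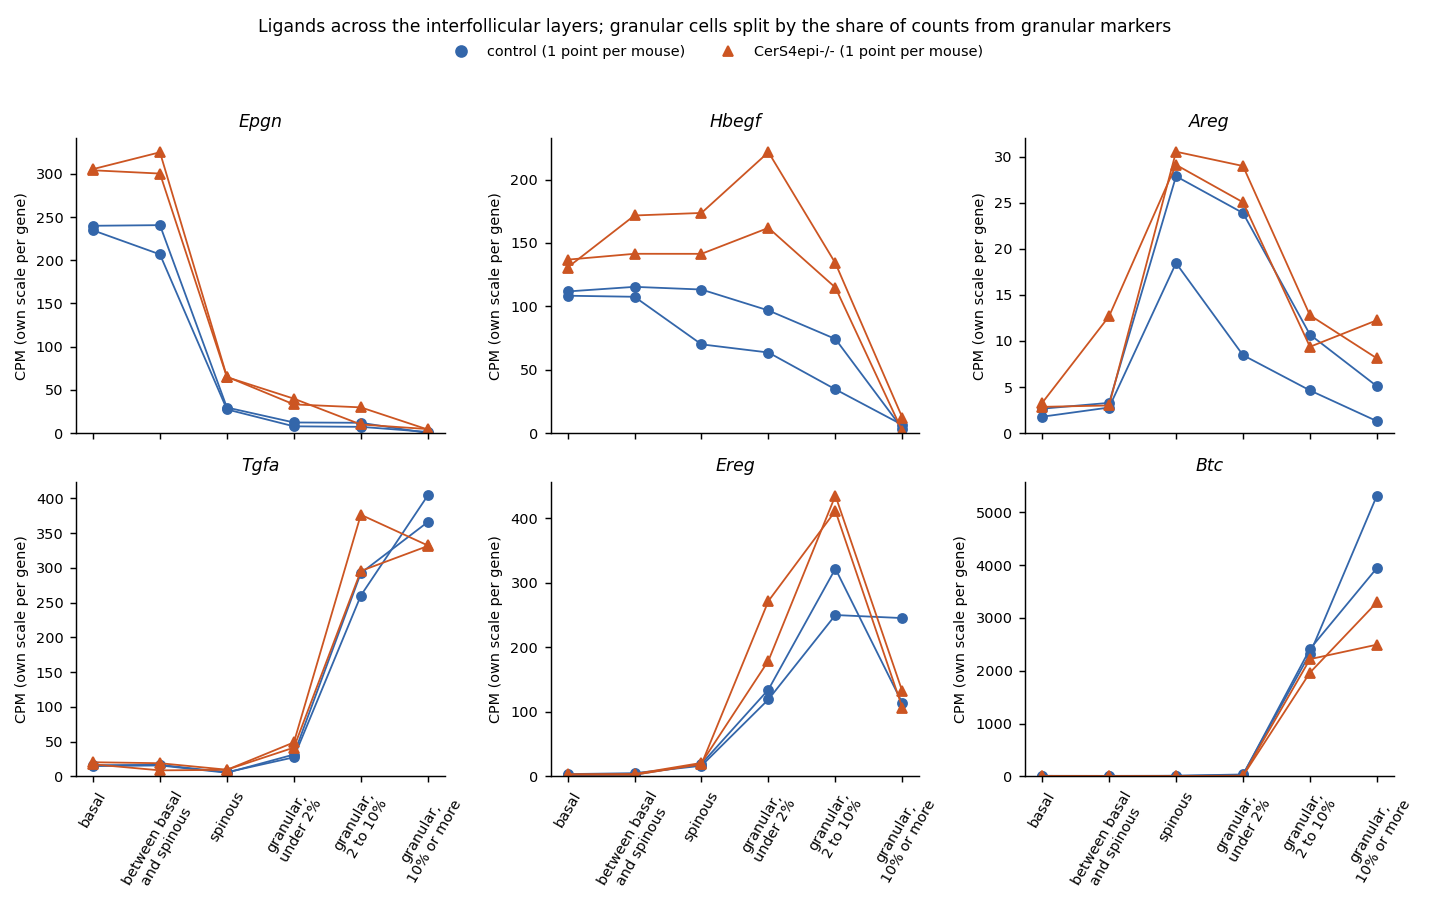
Each panel gives the CPM of 1 ligand over 6 steps, from IFE basal cells over cells between the basal and spinous gates and spinous cells to 3 granular steps by share of counts from granular markers, with 1 line for each mouse, a scale of its own for each gene, and color for genotype. Epgn falls after the first 2 steps, Ereg is highest at the middle granular step in all 4 mice, and Btc and Tgfa are high in the last 2 steps.

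Tgfa and Ereg were detected more often in granular cells with a count of Btc than in those without. Among granular cells thinned to 1200 counts, Tgfa was detected in 42.4 and 37.8% of Btc-positive cells of control mice and in 44.0 and 50% of those of CerS4epi-/- mice. Among cells with no Btc count, the shares were 12.1 and 9.27% in control mice and 13.4 and 17.0% in CerS4epi-/- mice. For Ereg, the shares were 27.01 and 31.7% with Btc against 16.2 and 11.5% without it in control mice, and 33.3 and 27.2% against 23.7 and 17.0% in CerS4epi-/- mice. The order was the same in each of the 4 mice for both genes. Cells of 1 gate differ in how far they have differentiated, and these shares do not separate that from a link between the genes.

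The receptors varied less between classes than most ligands. Against basal cells no receptor differed by more than 1.32 on the log2 scale, while each ligand other than Hbegf differed by 3.28 or more in some class. Egfr (chr11:16702198-16868158), the receptor of all these ligands, was at 71.0 and 64.2 CPM in control basal cells, 51.5 and 39.9 CPM in spinous cells and 30.1 and 29.7 CPM in granular cells. Its log2 difference to basal cells was -0.42 ± 0.09 (SE, edgeR adjusted p = 0.000181) in spinous and -0.43 ± 0.09 (SE, edgeR adjusted p = 0.000117) in granular cells, where scaling by library size alone gave -1.25. The direction was down in both layers with both scalings. Erbb2 (chr11:98303203-98328542), the shared partner, went the other way, from 20.1 and 20.5 CPM in basal cells to 39.0 and 39.2 CPM in spinous cells, a log2 difference of 1.23 ± 0.10 (SE, edgeR adjusted p = 1.72e-12). Erbb3 (chr10:128403392-128425811) was at 56.9 and 59.7 CPM in control basal cells and 103 and 84.6 CPM in uHF-like cells. The log2 difference was 0.89 ± 0.11 (SE, edgeR adjusted p = 6.78e-08). Erbb3 was higher in spinous and granular cells too (0.62 ± 0.10 and 1.17 ± 0.11, edgeR adjusted p = 6.43e-06 and 1.42e-11). In granular cells scaling by library size alone gave 0.35, and the control mean was 75.7 CPM against 58.3 CPM in basal cells.

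Lrig1 (chr6:94581510-94677242), like Epgn, was highest in the basal layer of the IFE. It was at 76.2 and 71.2 CPM in basal, 22.0 and 21.9 CPM in spinous and 6.39 and 4.91 CPM in granular cells of control mice, and each layer of every mouse lay below the one under it. The log2 difference to basal cells was -1.73 ± 0.17 (SE, edgeR adjusted p = 3.41e-10) in spinous and -3.22 ± 0.21 (SE, edgeR adjusted p = 5.15e-15) in granular cells. In the follicle it was higher in differentiated uHF-like cells (101 and 81.7 CPM in control mice), with a log2 difference over both genotypes of 0.87 ± 0.17 (SE, edgeR adjusted p = 6.42e-05). The mean Lrig1 level there was 91.3 CPM in control mice, against 73.7 CPM in basal cells. In CerS4epi-/- mice it was 184.0 CPM against 111 CPM. The difference of uHF-like to basal cells was -0.44 (edgeR adjusted p = 0.0486) and was lost with DESeq2, with stricter or looser gates, and when either control mouse or CerS4epi-/- mouse 2 was left out (-0.34, -0.32 and -0.47, adjusted p = 0.125, 0.214 and 0.0913).

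Over 7 classes compared with IFE basal cells, 41 of 70 differences of members passed the test, 26 higher and 15 lower. In spinous cells 4 members were higher and 4 lower, where 30.2% of the 11553 genes tested were higher and 30.6% lower. In granular cells 6 were higher and 3 lower, against 40.0% and 44.7% of all genes. In uHF-like cells 6 were higher and 2 lower, against 27.3% and 27.3%, and in differentiated uHF-like cells 8 were higher and 2 lower, against 33.7% and 35.8%. Inner bulge-like cells had 2 higher and 2 lower (14.7% and 18.0% of all genes), cycling basal cells 2 lower (14.6%) and Krt17+ cells none of 10 by edgeR, where 14.0% of all genes were called. In Krt17+ cells 2 members, Areg and Tgfa, had an unadjusted p under 0.05, and DESeq2 called both. With library size in place of the scaling factors the median of all genes in granular cells moved from -0.12 to -0.94 on the log2 scale, and higher and lower calls of all genes there went from 4616 and 5159 to 2735 and 7561. In spinous cells they went from 3486 and 3533 to 2571 and 4936, in uHF-like cells from 3158 and 3152 to 2637 and 3900, and in differentiated uHF-like cells from 3891 and 4133 to 2957 and 5434. No member called by the main scaling turned its direction.

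By correlation of log2 CPM over the 32 sums of 8 keratinocyte classes in 4 mice, the genes most like each member were named as a description, since the sums share mice and depth. Klf3, Card14 and Tnfrsf11b were the most like Ereg (r = 0.96, 0.94 and 0.925), and Il10rb, Il18 and Arrb1 the most like Tgfa (0.945, 0.93 and 0.929). Golga7, Ube2f and Map1lc3a led for Btc (0.932, 0.932 and 0.93), Col18a1, Trp53 and Traf3 for Epgn (0.926, 0.907 and 0.892), and Irx3, Ndrg2 and Sptan1 for Areg (0.906, 0.901 and 0.893). Hbegf had weaker matches in Gm15635, Klf10 and Abhd18 (0.784, 0.776 and 0.76). For the receptors they were Tbcel, Faap20 and Eif2ak4 for Egfr (0.803, 0.726 and 0.725), Ptk6, Smim6 and Erlin1 for Erbb2 (0.927, 0.895 and 0.89), and Mob2, Vps53 and Baiap2 for Erbb3 (0.875, 0.873 and 0.871). Calu, Plcg2 and Zfp326 were the most like Lrig1 (0.901, 0.859 and 0.858). Among the members, Btc with Tgfa and Ereg with Erbb2 stood highest (both 0.807), Epgn and Lrig1 reached 0.522, and Epgn with Areg was lowest (-0.647).

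The next comparison asked whether loss of CerS4 in keratinocytes went with a change of these genes. Over 8 keratinocyte classes and T cells, 74 pairs of member and class passed the filter on low counts, of which 19 were higher and 1 lower in CerS4epi-/- mice. In IFE basal cells 3 of 10 members were higher, where 5.28% of 12282 genes were, in spinous cells 4 were higher and 1 lower (3.85% and 3.21%), and in granular cells 5 were higher (7.33%). In uHF-like and differentiated uHF-like cells 2 of 10 were higher in each (3.74% and 7.5%), in inner bulge-like cells 2 of 5 (3.51%) and in Krt17+ cells 1 of 7 (1.72%). No member of 7 tested in cycling basal cells and of 5 in T cells passed edgeR's test, where 0.682% and 0.452% of all genes did, and in Langerhans cells no member passed the filter. At unadjusted p under 0.05, Epgn in cycling basal cells and Areg in T cells were the members among these, and DESeq2 called none of the 1 and 5 members to which it gave an adjusted p. Scaling by library size alone changed the split of higher and lower genes from 649 and 447 to 524 and 615 in basal cells, from 847 and 483 to 551 and 799 in granular cells, and from 757 and 672 to 668 and 923 in differentiated uHF-like cells.

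**Figure D4:**
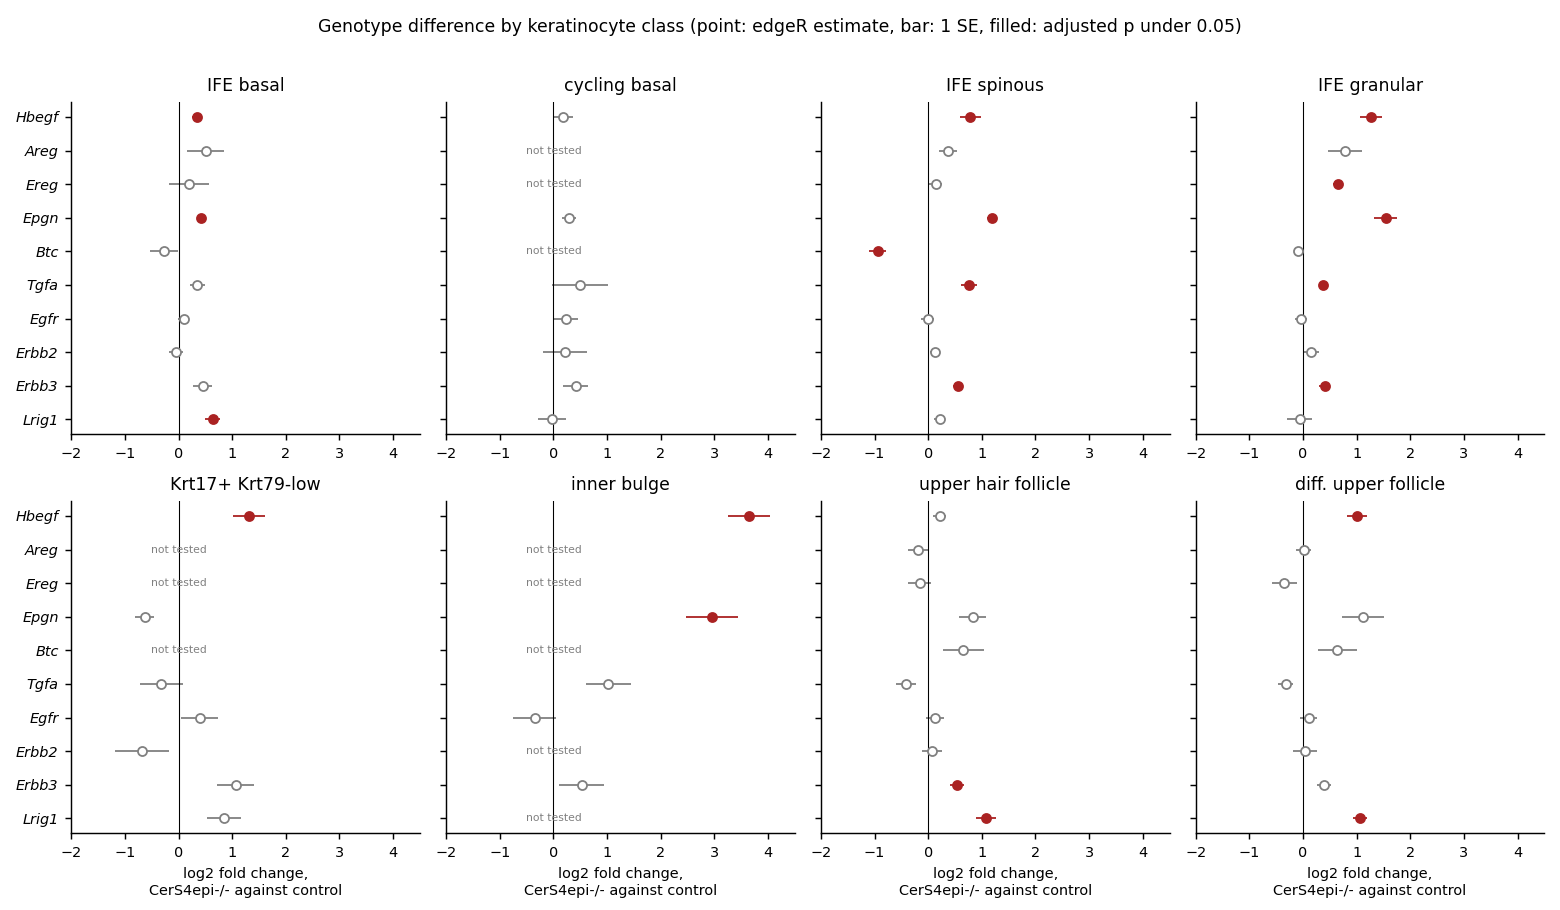
Each of 8 panels is a keratinocyte class, with the members in rows and the log2 difference of CerS4epi-/- minus control on the x axis, bars of 1 SE, and filled points where edgeR's adjusted p was under 0.05. Hbegf and Epgn are above 0 in most classes with the largest differences in inner bulge-like cells, and Egfr and Erbb2 have no filled point.

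Hbegf rose in 6 of the 9 classes in which it was tested, with differences of 0.34, 0.78 and 1.26 on the log2 scale in basal, spinous and granular cells. In granular cells it was at 78.2 and 43.7 CPM in control and 151 and 121 CPM in CerS4epi-/- mice, and the groups did not overlap. The log2 difference was 1.26 ± 0.21 (SE, edgeR adjusted p = 0.00406). In spinous cells the levels were 113 and 70.0 CPM and 174 and 141 CPM, with a log2 difference of 0.78 ± 0.19 (SE, edgeR adjusted p = 0.0479) that was 0.47 without control mouse 2 and was not called by DESeq2 (adjusted p = 0.335), with cells of at least 2000 counts (0.0537), with looser gates (0.0568) or without the 5% of cells with most counts (0.0983). In basal cells they were 112 and 108 CPM and 131 and 137 CPM, with a log2 difference of 0.34 ± 0.08 (SE, edgeR adjusted p = 0.0265). This small basal difference lost its call when control mouse 1, control mouse 2 or CerS4epi-/- mouse 2 was left out (adjusted p = 0.115, 0.15 and 0.0637) and with scaling by library size alone (0.0555), DESeq2 (0.122), cells of at least 2000 counts (0.0507), looser gates (0.0575) and thinned cells (0.0951). The sum of 15 genes known to respond to tissue dissociation was also higher in spinous cells of CerS4epi-/- mice (21340 and 18042 against 25069 and 26120 CPM, 10 of 15 genes higher in both), in granular cells (25047 and 21700 against 26479 and 25779 CPM) and in basal cells (26489 and 25023 against 26951 and 29669 CPM), and its part in the result was not tested.

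The tested follicle classes and the Krt17+ cells had the same direction for Hbegf. In differentiated uHF-like cells it was at 181 and 111 CPM in control and 316 and 254 CPM in CerS4epi-/- mice, with a log2 difference of 1.00 ± 0.19 (SE, edgeR adjusted p = 0.00472). There the dissociation genes stood lower in CerS4epi-/- mice (34079 and 27860 against 25757 and 24118 CPM, none of 15 higher), and their part in the result was not tested. Krt17+ cells had 61.9 and 118 CPM and 162 and 250.2 CPM and a log2 difference of 1.31 ± 0.30 (SE, edgeR adjusted p = 0.0229), which was 0.86 without control mouse 1 and 0.97 without CerS4epi-/- mouse 2 (adjusted p = 0.121 and 0.0757). The Krt17+ call was also lost with DESeq2, cells of at least 2000 counts, at most 10% mitochondrial counts, looser gates and thinned cells (adjusted p = 0.158, 0.0703, 0.222, 0.209 and 0.366). Inner bulge-like cells had 4 and 4 counts in control mice and 47 and 54 counts in CerS4epi-/- mice, or 17.1 and 24.7 CPM and 273 and 244 CPM. Their log2 difference was 3.65 ± 0.39 (SE, edgeR adjusted p = 7.15e-06), and single cells gave 29 of 47 counts in CerS4epi-/- mouse 1 and 20 of 54 in CerS4epi-/- mouse 2. In uHF-like cells the difference was 0.22 ± 0.12 and was not called.

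Epgn rose in the IFE layers that otherwise hold little of it, and in the basal layer. Basal cells had 239.9 and 235 CPM in control and 305 and 304 CPM in CerS4epi-/- mice, with a log2 difference of 0.42 ± 0.07 (SE, edgeR adjusted p = 0.00491). The share of basal cells with a count was lower in CerS4epi-/- mice (28.6% and 29.5% against 26.5% and 24.0%, and 16.7% and 17.2% against 15.4% and 15.0% after thinning), so no order is read from the shares. With cells thinned to 1200 counts the basal difference was 0.18 and was not called (adjusted p = 0.272). Spinous cells had 29.6 and 27.4 CPM and 65.2 and 64.7 CPM, and granular cells 11.2 and 7.01 CPM and 28.4 and 20.3 CPM. The log2 differences were 1.18 ± 0.09 (SE, edgeR adjusted p = 0.000451) and 1.54 ± 0.22 (SE, edgeR adjusted p = 0.00228), and the genotypes did not overlap in either layer. The granular call was lost with thinned cells (1.35, adjusted p = 0.0675). In the granular step under 2%, Epgn was at 12.2 and 7.77 CPM in control and 33.1 and 39.8 CPM in CerS4epi-/- mice. In the step of 2 to 10% the genotypes overlapped (11.9 and 7.19 against 29.7 and 9.90 CPM). At 10% or more it was under 5 CPM in every mouse. The levels by step were not tested. The summed Krt5, Krt14 and Krt15 of spinous cells was higher in CerS4epi-/- mice as well (6059 and 6639 against 8070 and 7777 CPM, all 3 genes), and its part in the Epgn difference was not tested. In granular cells the same sum was 671 and 611 CPM against 629 and 644 CPM.

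In the follicle classes and the Krt17+ cells, the only called difference of Epgn was in inner bulge-like cells. Inner bulge-like cells had 4 and 2 counts in control and 21 and 26 in CerS4epi-/- mice, with a log2 difference of 2.96 ± 0.48 (SE, edgeR adjusted p = 0.000697), and a single cell gave 16 of 21 counts in CerS4epi-/- mouse 1 and another 19 of 26 in CerS4epi-/- mouse 2. These cells also held more uHF markers in CerS4epi-/- mice (3319 and 1391 against 11474 and 19894 CPM) and less Krt1 and Krt10 (5197 and 4558 against 169 and 217 CPM), and the part of this in the Hbegf and Epgn differences was not tested. Krt17+ cells had 454 and 472 CPM in control and 265 and 314 CPM in CerS4epi-/- mice, apart in the opposite direction, with a log2 difference of -0.63 ± 0.18 (SE, edgeR adjusted p = 0.0629) that missed the threshold. In uHF-like cells it was at 32.1 and 14.2 CPM and 45.9 and 38.2 CPM, and the difference of 0.83 ± 0.26 (SE, edgeR adjusted p = 0.0564) missed it as well. In differentiated uHF-like cells Epgn was higher in both CerS4epi-/- mice, and the difference of 1.12 ± 0.39 (SE, edgeR adjusted p = 0.0855) was not called.

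The granular ligands divided. Ereg rose in granular cells, from 238 and 199.7 CPM in control to 336 and 314 CPM in CerS4epi-/- mice, with a log2 difference of 0.65 ± 0.09 (SE, edgeR adjusted p = 0.00162) that was 0.45 and not called with thinned cells (adjusted p = 0.0594), and was not called in the other 5 classes. Tgfa rose in granular cells by 0.38 ± 0.09 (SE, edgeR adjusted p = 0.0191) on the log2 scale, from 199 and 181 CPM to 215 and 253 CPM, and the call was lost without CerS4epi-/- mouse 2 (0.28, adjusted p = 0.0985) with library size alone (0.30, adjusted p = 0.0634), without the 5% of cells with most counts (0.26, adjusted p = 0.174) and with thinned cells (0.20, adjusted p = 0.529). In spinous cells it rose by 0.76 ± 0.15 (SE, edgeR adjusted p = 0.0216), from 5.23 and 5.95 CPM to 9.62 and 9.44 CPM, a call lost without control mouse 1 (0.67, adjusted p = 0.0525), without the 5% of cells with most counts (0.0538), with DESeq2 (0.109) and with thinned cells (0.156). Btc was not called in granular cells (-0.10 ± 0.06, edgeR adjusted p = 0.378, 2 SE interval -0.22 to 0.03), although its CPM was lower in both CerS4epi-/- mice. The share of granular cells with a Btc count was 52.5% on average in control and 40.1% in CerS4epi-/- mice. Within the granular step of 2 to 10% it was 64.9 and 66.1% against 48.6 and 43.5%. The CPM of Btc was lower in both CerS4epi-/- mice in each granular step. In the step of 10% or more, Tgfa was lower in both CerS4epi-/- mice as well (366 and 404 against 332 and 332 CPM). Ereg overlapped in that step (114 and 245.5 against 106 and 132 CPM). Under 2% and at 2 to 10%, Tgfa and Ereg were higher in both CerS4epi-/- mice. These shares and levels by step were not tested. In spinous cells Btc was called lower, at 10.7 and 11.9 CPM in control and 5.25 and 6.77 CPM in CerS4epi-/- mice, a log2 difference of -0.94 ± 0.16 (SE, edgeR adjusted p = 0.012) that was -0.66 and not called with thinned cells (adjusted p = 0.297). Control basal cells held a similar level (9.12 and 10.9 CPM). The fit over both genotypes did not separate spinous from basal cells for Btc (0.13 ± 0.37, edgeR adjusted p = 0.779). Over all cells the mean of Btc was 413 CPM in control and 319 CPM in CerS4epi-/- mice (edgeR adjusted p = 0.0545, not called). The part of Btc RNA from granular cells in the spinous values was not tested. The 9 granular markers were all higher in granular cells of both CerS4epi-/- mice (40985 and 40307 against 47396 and 49112 CPM in sum), and the part of this in the ligand differences was not tested.

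Areg was not called in any of its 6 classes. In spinous cells it was at 27.9 and 18.5 CPM in control and 30.6 and 29.1 CPM in CerS4epi-/- mice (log2 difference 0.36 ± 0.17, edgeR adjusted p = 0.24), and in granular cells at 15.3 and 5.87 CPM and 17.7 and 15.4 CPM (0.78 ± 0.32, adjusted p = 0.152). DESeq2 called it in no class either, and 2 of the 6 had an unadjusted p under 0.05 with edgeR. In uHF-like cells the genotypes overlapped, with 60.4 and 40.3 CPM and 45.6 and 43.9 CPM.

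T cells of the epidermis, outside the reach of the keratin-14 Cre, held the highest Areg of any gated class. A count was found in 23.1% and 18.2% of T cells of the 2 control mice (exact 95% intervals 15.4 to 32.4% and 9.76 to 29.6%) and in 31.2% and 34.0% of CerS4epi-/- T cells (23.6 to 39.6% and 26.3 to 42.5%), while in Langerhans cells the share was at most 3.70% in any mouse. These intervals cover counting error only. After thinning to 1200 counts the T cell shares were 17.6% and 10.6% in control and 24.6% and 27.5% in CerS4epi-/- mice. The level was 232 and 125 CPM in control T cells, from 50 and 18 counts, and 342 and 403 CPM in CerS4epi-/- T cells, from 123 and 151 counts. All values of CerS4epi-/- mice lay above those of control mice, but the log2 difference of 1.02 ± 0.25 (SE, edgeR adjusted p = 0.162) did not pass after adjustment (unadjusted p = 0.0015). T cell barcodes also held keratinocyte RNA, with 4810 to 6151 CPM of Krt1 and Krt10 in sum, and granular marker RNA was higher in CerS4epi-/- mice (524 and 459 against 3912 and 4869 CPM). The 5 uHF markers summed to 1257 and 1355 CPM in control and 881 and 4436 CPM in CerS4epi-/- T cells. Granular cells held 15.3 and 5.87 CPM of Areg in control and 17.7 and 15.4 CPM in CerS4epi-/- mice. Differentiated uHF-like cells held a mean of 98.9 CPM in control and 96.4 CPM in CerS4epi-/- mice. The part of keratinocyte RNA in the Areg of T cells was not tested.

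For Egfr and Erbb2 no genotype difference passed the test. Egfr was not called in any of 8 classes, and its log2 difference in basal cells was 0.09 ± 0.10 with a 2 SE interval of -0.10 to 0.29, from 71.0 and 64.2 CPM in control and 66.8 and 72.1 CPM in CerS4epi-/- mice. Erbb2 was not called in any of 7 classes, with 2 SE intervals of -0.31 to 0.21 in basal, -0.06 to 0.31 in spinous and -0.13 to 0.43 in granular cells. For Egfr they were -0.26 to 0.23 in spinous and -0.24 to 0.17 in granular cells. These intervals do not show that the levels were equal. Neither receptor had an unadjusted p under 0.05 in any class with edgeR, and DESeq2 called none.

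Erbb3 rose in 3 of 9 classes. Spinous cells had 72.4 and 77.2 CPM in control and 101 and 120.2 CPM in CerS4epi-/- mice, with a log2 difference of 0.55 ± 0.09 (SE, edgeR adjusted p = 0.0109). In uHF-like cells the levels were 103 and 84.6 CPM and 131 and 143 CPM and the difference 0.53 ± 0.12 (SE, edgeR adjusted p = 0.0126), and in granular cells 71.8 and 79.6 CPM and 87.2 and 103 CPM with 0.41 ± 0.10 (SE, edgeR adjusted p = 0.0259). The genotypes did not overlap in these classes. The uHF-like call was lost without control mouse 2 (0.41, adjusted p = 0.0913) without CerS4epi-/- mouse 2 (0.48, adjusted p = 0.0501), with DESeq2 (0.149) and with thinned cells (0.116), and the granular call without control mouse 1 (0.32, adjusted p = 0.108), without CerS4epi-/- mouse 2 (0.30, adjusted p = 0.124), with library size alone (0.33, adjusted p = 0.0701), without the 5% of cells with most counts (0.41, adjusted p = 0.0879) and with thinned cells (0.18, adjusted p = 0.675). In basal cells only CerS4epi-/- mouse 2 was clearly higher (56.9 and 59.7 against 58.4 and 95.7 CPM), and the difference was not called.

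Lrig1, the inhibitor, rose in both upper follicle classes and in IFE basal cells. Differentiated uHF-like cells had 101 and 81.7 CPM in control and 192 and 176 CPM in CerS4epi-/- mice, with a log2 difference of 1.07 ± 0.13 (SE, edgeR adjusted p = 0.000371). In uHF-like cells the levels were 45.3 and 34.0 CPM and 75.5 and 95 CPM and the difference 1.08 ± 0.18 (SE, edgeR adjusted p = 0.00104). Basal cells had 76.2 and 71.2 CPM and 90.4 and 131 CPM, a difference of 0.64 ± 0.14 (SE, edgeR adjusted p = 0.0175) that was 0.35 without CerS4epi-/- mouse 2, still called, and 0.65 with cells of at most 10% mitochondrial counts, where it was not (adjusted p = 0.0668). In spinous and granular cells, where Lrig1 was low in all mice, it was not called. The makeup of the upper follicle classes moved with genotype too. Summed Krt5, Krt14 and Krt15 in uHF-like cells was 3827 and 3315 CPM in control and 5900 and 5527 CPM in CerS4epi-/- mice, and in differentiated uHF-like cells it was 3035 and 3274 against 4944 and 5205 CPM. In differentiated uHF-like cells the 5 uHF markers Krt79, Krt17, Cst6, Defb6 and Klk10 were all higher (44638 and 43724 against 58084 and 64918 CPM in sum) and Krt1 and Krt10 lower in sum (8141 and 10166 against 3582 and 3510 CPM), and in uHF-like cells granular markers were higher (1533 and 1695 against 2600 and 2315 CPM, 6 of 9). Basal cells also held more of the 5 uHF markers in CerS4epi-/- mice (386 and 325 against 944 and 895 CPM, 4 of 5 higher) and less Krt1 and Krt10 (460 and 503 against 324 and 357 CPM). The part of these shifts in the differences of Lrig1, and in those of Hbegf, Epgn and Erbb3 in the same classes, was not tested.

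Whether the effect of genotype differed between classes was tested as an interaction against IFE basal cells. Of 70 such differences of effects, 4 passed. For Hbegf the effect was larger in granular cells by 0.96 ± 0.22 (SE, edgeR adjusted p = 0.00856), and in inner bulge-like cells by 3.35 ± 0.65 (SE, edgeR adjusted p = 0.0015). For Epgn it was larger in granular cells by 1.14 ± 0.28 (SE, edgeR adjusted p = 0.0128). For Tgfa in differentiated uHF-like cells the difference of effects was -0.66 ± 0.21 (SE, edgeR adjusted p = 0.048), where control mice had 130.4 and 116 CPM and CerS4epi-/- mice 86.4 and 102 CPM. In granular cells 2 of 10 members thus differed where 4.64% of 12369 genes did, in inner bulge-like cells 1 of 10 (2.02%) and in differentiated uHF-like cells 1 of 10 (6.55%). Without control mouse 2 the granular values were 0.63 for Hbegf and 0.88 for Epgn, and neither was called (edgeR adjusted p = 0.189 and 0.216), whereas without CerS4epi-/- mouse 1 the Epgn value was 0.87 and was called (adjusted p = 0.0316). Without control mouse 1, control mouse 2 or CerS4epi-/- mouse 1 the Tgfa value was -0.47, -0.81 and -0.38, and was not called (adjusted p = 0.485, 0.0755 and 0.451), nor was it with no filter on low counts (-0.58, adjusted p = 0.0927). For all other pairs, including Lrig1 in the follicle and Erbb3 in every class, no difference of effect between the class and basal cells was shown.

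Of 53 other genes of the pathway, the targets and inhibitors held most of the calls. Of 9 listed target genes, 5 were higher and 1 lower in IFE basal cells of CerS4epi-/- mice, and 6 were higher in spinous cells. Over all genes 5.28% were higher and 3.64% lower in basal and 3.85% higher in spinous cells. Of 7 tested target genes, 3 were higher in granular (7.33% of all genes), 3 in uHF-like (3.74%) and 1 in differentiated uHF-like cells (7.5%). Of 9 tested, none passed edgeR's test in cycling basal or Krt17+ cells. There 2 and 0 had an unadjusted p under 0.05, and DESeq2 called none of the 2 and 8 to which it gave an adjusted p. In inner bulge-like cells 1 of 4 was higher (3.51%). Dusp6, a phosphatase of ERK that ERK signaling itself induces, rose in 7 of 8 keratinocyte classes. In basal cells it was at 47.1 and 40.8 CPM in control mice and 99.6 and 144 CPM in CerS4epi-/- mice, with a log2 difference of 1.52 ± 0.15 (SE, edgeR adjusted p = 0.000163). The difference was 1.09 ± 0.12 (SE, edgeR adjusted p = 0.00192) in spinous and 0.75 ± 0.10 (SE, edgeR adjusted p = 0.00134) in granular cells.

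Etv4, an ETS transcription factor induced by ERK, was at 5.29 and 3.54 CPM in control mice and 12.4 and 26.0 CPM in CerS4epi-/- mice in basal cells and rose there by 2.14 ± 0.34 (SE, edgeR adjusted p = 0.00259) on the log2 scale. Ier3, an immediate early gene that limits cell death, was at 7.61 and 7.80 CPM in control mice and 18.9 and 23.0 CPM in CerS4epi-/- mice in granular cells, a log2 difference of 1.51 ± 0.16 (SE, edgeR adjusted p = 0.000446). Phlda1, a pleckstrin homology-like protein, was at 2.62 and 2.37 CPM in control mice and 15.1 and 14.7 CPM in CerS4epi-/- mice in uHF-like cells, with a log2 difference of 2.54 ± 0.43 (SE, edgeR adjusted p = 0.00138). All of these had the genotypes apart. Egr1 and Fos, immediate early genes that are also on the dissociation list, rose in basal (0.54 and 0.41), spinous (0.87 and 0.70) and granular cells (0.75 and 0.79), and Etv5 rose in spinous cells (1.07).

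Among the listed inhibitors, Socs5 rose in basal and spinous cells (0.82 and 0.60) and Errfi1, which binds the Egfr kinase, in basal and granular cells (0.50 and 0.48). Spred2, an inhibitor of the Ras pathway, and the AP-1 gene Fosl1 fell in basal cells (-0.59 and -0.43). Dusp5 fell in uHF-like cells (-0.65) and Spry1 in differentiated uHF-like cells (-0.86). The 20 adaptor and kinase genes had a median log2 difference of 0.01 in basal and 0.01 in spinous cells. Those called and apart between genotypes included Mapk3 in basal and uHF-like cells (0.36 and -0.37), Stat3 in both uHF classes (0.47 in each) and Map2k1 in differentiated uHF-like cells (1.73). Myc rose in uHF-like cells (0.93). Of the 4 genes for ligand shedding, Rhbdf1 was called, lower in differentiated uHF-like cells (-0.62). Over the whole list, 9 of 47 tested genes were higher and 2 lower in basal cells, where 5.28% of all genes were higher and 3.64% lower. In spinous cells 8 of 49 were higher (3.85% of all genes) and in granular cells 6 of 46 (7.33%). In uHF-like cells 5 of 44 were higher and 2 lower (3.74% and 4.44%), and in differentiated uHF-like cells 3 of 44 were higher and 2 lower (7.5% and 6.66%). Cycling basal cells had 1 of 46 higher (0.534%), Krt17+ cells 2 of 45 (1.72%) and inner bulge-like cells 2 of 30 (3.51%). The median log2 difference of the list was 0.04, 0.14 and 0.08 in basal, spinous and granular cells, against 4e-04, -3e-04 and -0.01 over all genes tested.

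**Figure D5:**
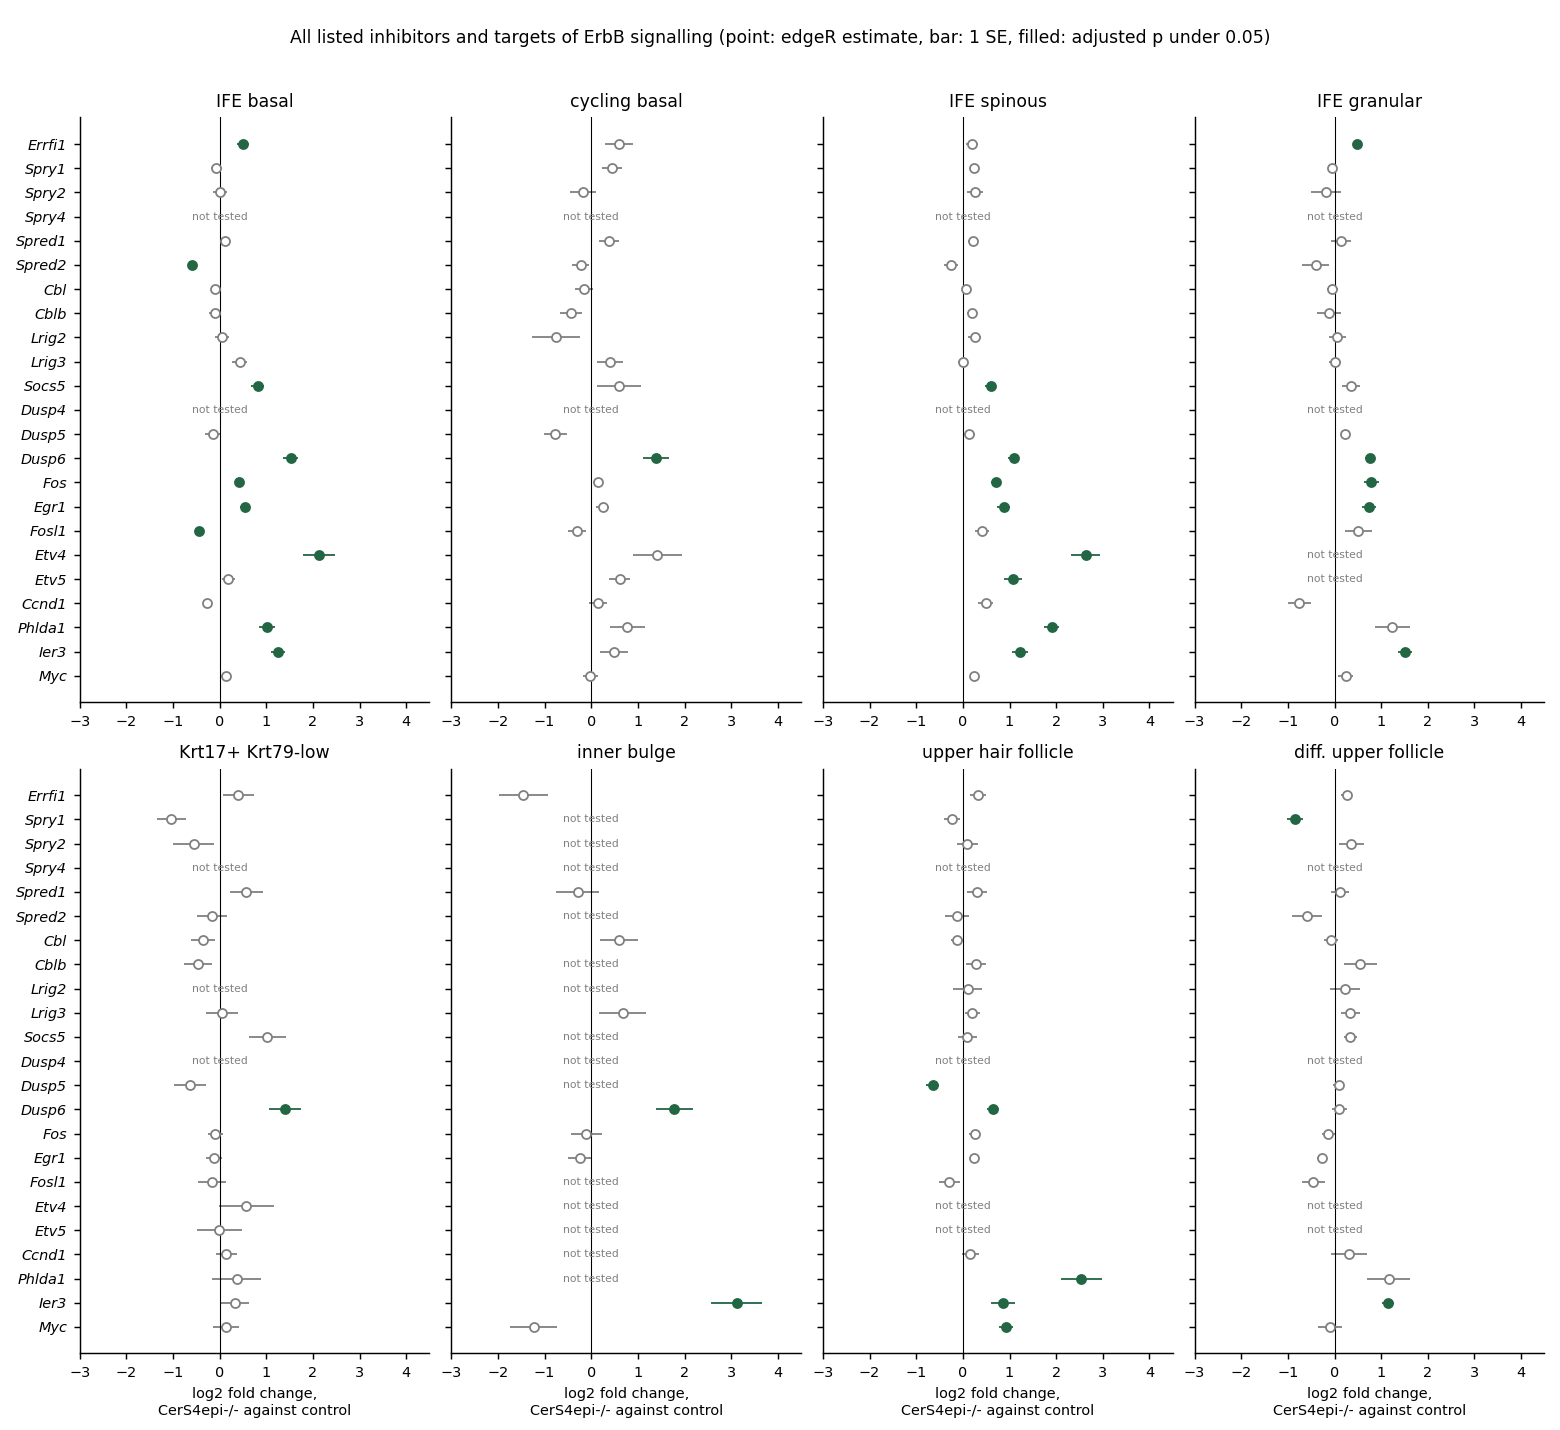
The 14 listed inhibitors and 9 listed target genes are in rows, with a panel for each of 8 keratinocyte classes and the log2 difference of CerS4epi-/- minus control on the x axis, bars of 1 SE, and filled points where edgeR's adjusted p was under 0.05. Dusp6 and Ier3 have filled points in most classes, and most other genes have few.

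Over all cells together, 5 of 10 members were higher in CerS4epi-/- mice, where 8.18% of 16034 genes were, and no member was called lower. The log2 differences were 0.84 for Hbegf, 0.34 for Ereg, 0.66 for Epgn, 0.50 for Erbb3 and 0.98 for Lrig1 (edgeR adjusted p = 0.02, 0.0466, 0.00686, 0.0198 and 0.00894). Ereg lost its call without control mouse 1, control mouse 2 or CerS4epi-/- mouse 1 (0.37, 0.31 and 0.22, adjusted p = 0.0533, 0.103 and 0.137), without the 5% of cells with most counts (0.07, adjusted p = 0.609) and with thinned cells (0.31, adjusted p = 0.128). In sums over all cells the mix of classes enters, and CerS4epi-/- mice had 791 and 756 differentiated uHF-like cells where control mice had 313 and 206, and 2283 and 1663 spinous cells where control mice had 2847 and 3384.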

How the data were processed

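RNA of single epidermal cells was measured in 2 control and 2 CerS4epi-/- mice. The authors trimmed reads with fastp 0.23.2, assigned barcodes and molecular identifiers with their own scripts and counted with STARsolo (STAR 2.7.10a) on GRCm39 with Gencode annotation, keeping all barcodes. The deposited values are expected counts per gene and barcode, in which reads that match several genes were shared out by expectation maximization, so 4.545% or more of the entries of a library were not whole, and reads of near-identical copies can be split. The submitters' processing notes also name Scanpy 1.9.1 and Seurat.

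From these files, a barcode was taken as a cell from 1200 counts upward and with up to 20% mitochondrial counts, and cells were assigned to classes by counts of marker genes. Doublets were not removed by a caller and are taken as present. Totals were 39231945 to 53106317 counts per library, and floors and intervals cover counting error only. Counts were summed per class and mouse and rounded, genes with low counts were removed by filterByExpr, and edgeR 4.0.16 (R 4.3.3) was run with TMM factors, a quasi-likelihood test and Benjamini-Hochberg adjustment over all genes of the fit at 0.05. Classes with under 20 cells in a mouse were not tested. The mouse was the replicate, where the study's methods used pseudoreplicates of cells. The SE of a log2 difference is its size divided by the root of the F statistic, and fold changes are on the scale of the fit. Each class was compared with IFE basal cells over the mice of both genotypes, with the mouse as a term. The fits were tested on simulated data. DESeq2 1.42.0 and the other alternatives are covered in the closing section. The replicate numbers come from the labels. Python 3.11.15 with scipy 1.17.1 was used for the rest.

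Coordinates are of GRCm39 with Gencode vM39, a later release than that of the files. All 10 members matched by gene identifier. Promoter windows were read from that genome, and the motif background from windows of the same length.

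The members, gene lists and tests were chosen with earlier results of these data known, and the gate limits were set with the data at hand. All 10 members are named. From the pathway list, genes are named that passed the test with the genotypes apart, up to 5 per direction and class, except some that are not reported here, and the 3 genes of highest correlation are named per member.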

Additional observations from a re-analysis of the deposited data

Results flagged for a closer look

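The genotype effect differed between a class and IFE basal cells, by the interaction term of edgeR, for 4 pairs of member and class. For Hbegf the effect on the log2 scale was larger by 0.96 in granular cells and by 3.35 in inner bulge-like cells. The inner bulge-like value rests on 4 counts in each control mouse and on 47 and 54 counts in the CerS4epi-/- mice. For Epgn the effect was larger by 1.14 in granular cells, where the level was 11.2 and 7.01 CPM in control and 28.4 and 20.3 CPM in CerS4epi-/- mice. For Tgfa in differentiated uHF-like cells the difference of effects was -0.66. Without control mouse 2 the granular values were 0.63 for Hbegf and 0.88 for Epgn and neither was called. Without CerS4epi-/- mouse 1 the Epgn value was 0.87 and was called.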

How the results depend on the processing

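Of 25 called genotype differences, sums over all cells included, 12 kept their call in every alternative run, 13 lost it in some and none turned its direction. For class differences 35 of 41 kept it, and for the interaction 1 of 4. Called values of inner bulge-like cells had 12 alternative runs for genotype and 8 for class, where the others had 15 and 9. Runs with under 20 cells of a class in a mouse were not fitted. The count of genotype calls, 20, became 33 with no filter on low counts, 10 with cells thinned to 1200 counts and 15 with DESeq2, and ranged from 19 to 31 when each mouse was left out, the highest without CerS4epi-/- mouse 1. With the replicate number as a block it was 26. Same-numbered mice did not deviate together (correlations of deviations from -0.062 to 0.091). This cannot show whether such mice shared anything beyond their number. Class calls, 41, ranged from 37 to 49. Interaction calls, 4, became 13 with no filter, and 2 to 9 with each mouse left out, 2 without control mouse 2 and 9 without either CerS4epi-/- mouse. Pathway calls, 42 over 10 classes, became 27 with DESeq2 and 27 with thinned cells, ranged from 40 to 55 with each mouse left out, and were 57 with the replicate block. The cause of these changes was not tested, except that thinning leaves fewer counts and the absent filter more genes. Scaling by library size alone and the interaction and pathway alternatives were chosen after seeing the data. Thinning lowered all 60 shares of cells with a count. The lone sample of a group with 1 mouse left is assumed to vary like the other group. Few cells per mouse limit inner bulge-like (26 to 47), Langerhans (42 to 73), T (66 to 141) and Krt17+ cells (74 to 280).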
